A study of Mus musculus with 30 samples.

Results

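Class I odorant receptor (OR) genes, the older of the vertebrate OR gene classes, were followed across 5 groups of mice. In the mouse they lie together in 1 large cluster on chromosome 7, and most of their receptors are known from neurons of the dorsal olfactory mucosa, where carboxylic acids are among their best studied ligands. A mature olfactory sensory neuron transcribes 1 OR gene from 1 allele, so the RNA level of an OR gene in a whole mucosa depends both on how many neurons chose the gene and on how much RNA each of them holds. The measurements below cannot tell fewer neurons apart from less RNA per neuron. Members were the OR genes whose MOR number in the OR naming table of the study is 1 to 42, and 86 of the 564 OR genes with probes met this rule. Another 7 class I names of that table are not analysed here, and 478 OR genes were class II.

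RNA of the whole olfactory mucosa of single mice aged 21 days, 1 µg per lane, was counted with NanoString probes, which tally target RNA molecules through a colour-coded reporter probe without amplification. There were 30 mice, 6 in each group. The first pair of groups was run on cartridge MK38: wild-type 129SvEvTac mice (background 129S6/SvEvTac, 4 females and 2 males), called wild-type 129 here, in lanes 1 to 6, and mice homozygous for ΔOlfr7Δ in the inbred 129SvEv background (2 females and 4 males) in lanes 7 to 12. The ΔOlfr7Δ deletion removes a stretch of chromosome 9 that holds the Olfr7 cluster. Cartridge MK29 held wild-type mice of the companion strain of ΔP (Berry) x ΔH (3 females and 3 males, lanes 1 to 6) and mice homozygous for both deletions, called ΔHxΔP (1 female and 5 males, lanes 7 to 12). Cartridge MK37 held wild-type mice of the companion strain of ΔH alone (4 females and 2 males). These 18 mice were of a mixed C57BL/6J x 129SvEv background, and which alleles a given mixed mouse carried at the class I cluster is not stated. The H and P elements, which the double mutants lack, are enhancers that act on OR genes near them on chromosomes 14 and 7. Genotype and lane position cannot be told apart within MK38 and MK29, nor can the 129 background be told apart from cartridge MK38. Counts of the genes that the deletions concern moved as labelled. All 37 measured genes of the Olfr7 cluster were lower in ΔOlfr7Δ mice, and 6 of 7 tested H cluster genes and 17 of 22 tested P cluster genes were lower in ΔHxΔP mice.

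Raw counts summed over the OR genes ran from 618163 to 1013430 per lane. Lanes were scaled on 6 positive controls and then on 5 reference genes that mark mature olfactory neurons (Omp, Gnal, Cnga2, Ano2 and Adcy3), and every level below is such a scaled count per lane. Background, the mean plus 2 SD of 8 negative controls, lay between 32.4 and 56.2 scaled counts. Each class I gene with a value exceeded its lane's background by at least 78.4 scaled counts in each mouse, and all members with values in a comparison passed the low-count filter of 100. Olfr547 and Olfr589 had values in the 12 mice of MK38 alone and Olfr611 in the 18 mice of MK29 and MK37 alone, which left 83 class I genes with values in all lanes.

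Each gene was read with a capture and a reporter probe of 39 to 50 bases. The probe pairs of the 4 members that differed most in level between the 129 and the mixed mice are given 5′ to 3′ as the file lists them, since every value of those genes rests on these bases. Whether alleles of the 129 and mixed mice differ in these bases, which could change a count without a change in RNA, was not tested. The listed strand reads as antisense to the transcript, since the reverse complement of both probes held an open reading frame in 86 of 86 members, against 64 for the listed strand.
Olfr568 capture: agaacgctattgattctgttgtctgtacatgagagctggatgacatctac
Olfr568 reporter: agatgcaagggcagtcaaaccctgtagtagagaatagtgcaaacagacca
Olfr543 capture: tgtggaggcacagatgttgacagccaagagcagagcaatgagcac
Olfr543 reporter: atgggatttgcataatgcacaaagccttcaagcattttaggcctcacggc
Olfr552 capture: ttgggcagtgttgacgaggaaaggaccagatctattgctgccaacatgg
Olfr552 reporter: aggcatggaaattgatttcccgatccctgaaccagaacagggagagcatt
Olfr560 capture: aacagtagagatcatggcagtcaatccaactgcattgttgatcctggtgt
Olfr560 reporter: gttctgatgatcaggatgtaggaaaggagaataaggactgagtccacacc

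Probes of class I genes shared few bases in a row with the probes of other measured OR genes. The OR transcripts themselves were not searched. The longest run of bases that a member's probe shared with a probe of another gene had a median of 12 bases over the 86 members, and it reached 20 bases in 1 of them, Olfr667. That pair is shown with the 23 shared bases in capitals.
Olfr667 reporter: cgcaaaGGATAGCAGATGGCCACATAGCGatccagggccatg
Olfr535 capture: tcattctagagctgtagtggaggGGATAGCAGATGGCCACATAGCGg
Olfr535 is a class II gene, and the value of Olfr667 is uncertain to the extent that either probe binds the other transcript. GC content of the probes ran from 41.0% to 55.0% in class I, and it did not follow the levels (Spearman rho = -0.09 over 86 genes, a description). Because every gene has probes of its own, the order of levels between genes is an order of counts per probe pair, not of molecules per neuron.

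Class I genes spanned a 27.6-fold range of mean level in wild-type 129 mice, from 154 to 4265 scaled counts. The class II range in the same mice was 81.7-fold, up to 11156. In wild-type 129 mice the class I median was 1050 and the class II median 1104. In the mixed wild-type mice the class I median was lower than that of class II, at 878 against 1084 on MK29 and 950 against 1180 on MK37. When the 549 OR genes with values in all lanes were ordered by wild-type level, class I held 9.26% of the top 10% and 16.4% of the lowest 10%, beside 15.1% of all ranked genes.

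The order below is by the mean log2 level over the 3 wild-type groups, whose own orders differed. At its top stood Olfr665 (MOR34-7), which in wild-type 129 mice alone (3812 ± 244) came after Olfr690, Olfr610 (4029 ± 351) and Olfr644 (3889 ± 434). Its 6 wild-type 129 mice gave 3578, 3834, 4234, 3821, 3841 and 3562, the MK29 wild-type mice 2724 to 3625, and the MK37 wild-type mice 4717 to 5667. The groups of Olfr665 did not share a range between MK29 and MK37. Olfr690 (MOR31-2), a receptor known to respond to aliphatic acids, came second at 4265 ± 347 (SD, n = 6) in wild-type 129 and 2910 ± 251 and 4065 ± 298 in the mixed groups. Olfr653, Olfr683 and Olfr610 followed, with means over the wild-type groups (on the log2 scale, turned back to counts) of 3163, 2987 and 2972. The lowest members were Olfr589 (154 ± 20.6 in wild-type 129, with no values in mixed mice), Olfr664, Olfr670, Olfr593 and Olfr551, all between 153 and 278. Olfr664 carries the P suffix of a pseudogene in its MOR name (MOR34-10P).

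**Figure D1:**
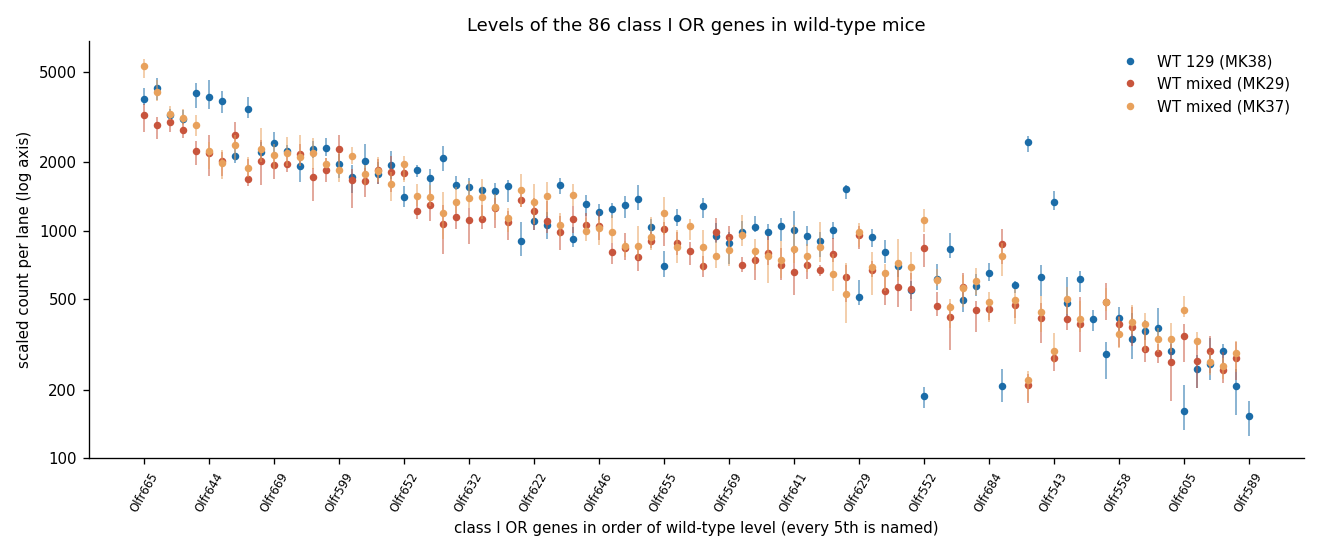
Scaled count per lane (log axis) of the 86 class I genes in order of wild-type level. Points are means of 6 mice and lines run from the lowest to the highest mouse of each wild-type group; Olfr665 leads and Olfr589 is last, while Olfr568 and Olfr543 in wild-type 129 mice stand far above their values in mixed mice.

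Neighbours in this order could lie far apart, as Olfr568 (2217 to 2621 in wild-type 129 mice) beside Olfr676 (536 to 604). Each wild-type group was then ordered by its own means, which places genes of similar level side by side. In wild-type 129 mice the ranges of 83 of 84 such neighbouring pairs overlapped, and in the mixed wild-type groups 83 of 83 and 81 of 83 did. The order as a whole held between groups of one background: Spearman rho over 83 genes was 0.993 between wild-type 129 and ΔOlfr7Δ, 0.979 between the mixed wild-type groups and 0.984 between MK29 wild-type and ΔHxΔP mice. Between backgrounds rho was 0.809 and 0.803 for the wild-type groups. The 10 highest class I genes followed this split in part. Wild-type 129 and ΔOlfr7Δ mice shared 9 of them and the mixed wild-type groups 7. ΔHxΔP mice shared 8 with the MK29 and 9 with the MK37 wild-type mice. Between backgrounds, wild-type 129 shared 7 with the MK29 and 6 with the MK37 wild-type mice, and 6 with ΔHxΔP mice. ΔOlfr7Δ mice shared 7 with each of the mixed groups.

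Among class I genes known outside the nose, Olfr78 (MOR18-2), a receptor of short-chain fatty acids also found in kidney and carotid body, had 1709 ± 137 scaled counts in wild-type 129, 1296 ± 165 on MK29 and 1416 ± 99.4 on MK37. Olfr558 (MOR18-1), its close relative, was lower at 416 ± 37.5, 390 ± 40.6 and 354 ± 36.6. Olfr691 (MOR31-6) gave 951 ± 79.8, 706 ± 51.4 and 776 ± 72.3. The genes beside the beta-globin locus differed among themselves: Olfr67 stood at 2132 ± 113 in wild-type 129, Olfr64 at 1595 ± 88.7 and Olfr66 at 1281 ± 98.4. Olfr504 (MOR40-15), which lies apart from the class I cluster on the far side of the P cluster, had 617 ± 56.2, 469 ± 44.1 and 608 ± 45.7.

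The 86 genes fell into 39 subfamilies by MOR number, 19 of them with 1 member. The 10 members of MOR31 ran from 406 to 3685 scaled counts in wild-type level, the 8 of MOR32 from 153 to 2460, and the 5 of MOR34 from the level of Olfr664 to the 4010 of Olfr665. MOR13 (5 members, median 998) and MOR8 (4 members, median 1150) had narrower ranges. Members of 1 subfamily could thus lie far apart in level.

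Class I genes stood mostly higher in wild-type 129 mice than in wild-type mixed mice. Of 83 tested, 46 (55.4%) were higher in wild-type 129 and 13 (15.7%) lower (limma on log2 scaled counts, adjusted p under 0.05), where over all 549 OR genes tested 33.3% were higher and 37.3% lower. Calls in either direction were about as frequent in class I as over all OR genes, and it was their split that differed. The median class I difference was 0.24 on the log2 scale (1.18-fold), against -0.002 over all OR genes and -0.055 over class II. Among scalings the narrowest split was 31 higher and 17 lower, on the positive controls alone. The methods' fold change test called far fewer, 6 higher and 5 lower. For these alternatives the shares over all OR genes are not given here. The 12 mixed mice came from MK29 and MK37 and the 129 mice from MK38, so that this comparison is of mice and cartridges at once.

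Olfr568 (MOR14-11, chr7:102877122-102878063 in GRCm38.p6) showed the widest difference. Its scaled counts in the 6 wild-type 129 mice were 2409, 2589, 2621, 2380, 2550 and 2217. In the mixed wild-type mice they were 218, 176, 236, 219, 198 and 220 on MK29 and 179, 231, 242, 219, 233 and 219 on MK37. The groups lay far apart, by 11.4-fold (log2 difference 3.51 ± 0.073, SE, limma adjusted p = 2.96e-20). Of the mutant groups, ΔOlfr7Δ mice (129 background, MK38) ran from 2199 to 2552 and ΔHxΔP mice (mixed background, MK29) from 138 to 277. Each shares both background and cartridge with a wild-type group, so background and cartridge cannot be told apart here either.

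Olfr543 (MOR42-2, chr7:102476773-102477902), the first gene of the cluster, gave 1333, 1494, 1298, 1263, 1427 and 1236 in wild-type 129 mice. Its 12 mixed wild-type mice lay between 243 and 356, and the ranges were apart (4.70-fold, log2 difference 2.23 ± 0.074, limma adjusted p = 1.47e-16). Olfr619 (MOR31-5) was 2.68-fold higher in wild-type 129 (1526 ± 82.6 against 578 ± 106, limma adjusted p = 1.55e-10). Smaller differences in the same direction came from Olfr616 (1.92-fold) and Olfr603 (1.86-fold), which were among the most abundant members in wild-type 129, at 3424 ± 242 and 3729 ± 294.

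In the opposite direction stood Olfr552 (MOR28-1, chr7:102604356-102605309). Wild-type 129 mice gave 167, 182, 206, 207, 177 and 191 scaled counts, while the mixed wild-type mice gave 696 to 971 on MK29 and 988 to 1251 on MK37. This is a 5.12-fold lower level in wild-type 129 (log2 difference -2.36 ± 0.11, limma adjusted p = 3.41e-14). Olfr560 (MOR14-1, chr7:102752983-102753927), of the same subfamily as Olfr568, was 3.92-fold lower (209 ± 24.3 against 826 ± 112, limma adjusted p = 6.30e-14). Olfr605 (MOR24-5) was 2.45-fold lower, Olfr629 (MOR26-2) 1.89-fold and Olfr550 (MOR16-1) 1.70-fold. Of the 83 genes, 3 were at least 2-fold higher and 3 at least 2-fold lower in wild-type 129. The share of all OR genes past 2-fold is not given here. Log2 differences ran from -2.36 to 3.51 in class I and from -2.40 to 2.22 in class II, so large differences were not particular to class I.

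**Figure D2:**
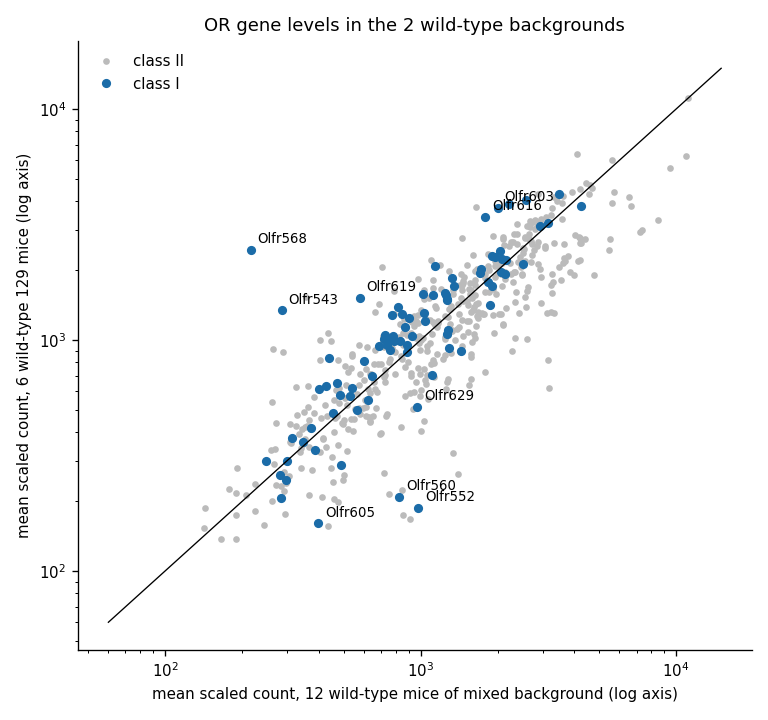
Mean scaled count of each tested OR gene in the 6 wild-type 129 mice against the 12 mixed wild-type mice (log axes, line of equal level). Class I genes are blue and class II genes grey; Olfr568, Olfr543 and Olfr619 lie above the line and Olfr552, Olfr560 and Olfr605 below it.

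When the mutants were added, the 12 mice of the 129 background and the 18 mixed mice had ranges that did not overlap in 18 of 83 class I genes, 12 higher and 6 lower in 129. Over the OR genes outside the Olfr7, H and P clusters, 23.3% of 484 had such separate ranges, so the class I share was close to that of the other genes. Besides the genes named above, Olfr576, Olfr610, Olfr628, Olfr66, Olfr643, Olfr654 and Olfr685 were among the higher and Olfr652 and Olfr655 among the lower.

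**Figure D3:**
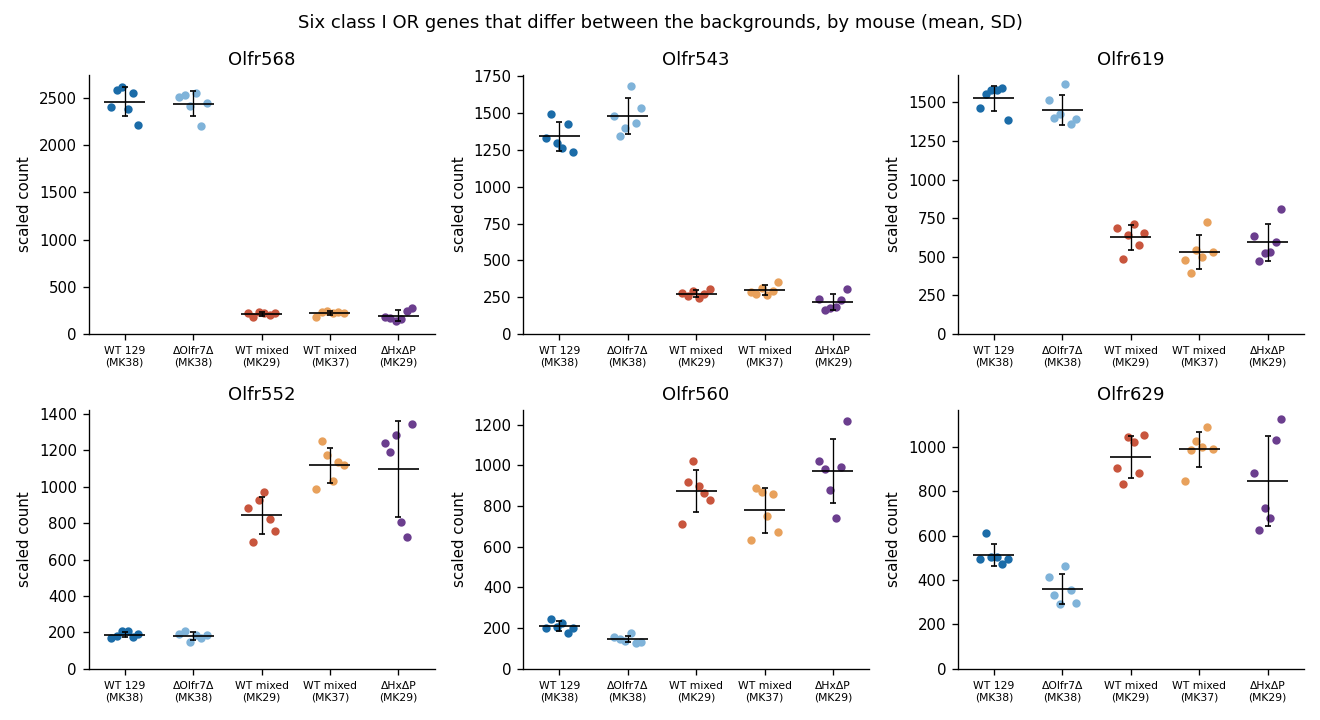
Scaled counts of 6 class I genes in each of the 30 mice (points, each group's mean as a bar with its SD). In all 6 genes the wild-type 129 and ΔOlfr7Δ mice of MK38 lie apart from the 18 mixed mice, for example at 2199 to 2621 against 138 to 277 for Olfr568.

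As a class, the members stood on average higher relative to class II in wild-type 129 mice than in the other 4 groups. Per mouse, the median class I deviation from the wild-type mean less the median class II deviation (outside the Olfr7, H and P clusters) is a log2 difference that does not move with lane scaling. It was 0.20, 0.20, 0.26, 0.11, 0.21 and 0.15 in the wild-type 129 mice. In ΔOlfr7Δ mice it was -0.056, -0.019, -0.024, 0.042, -0.090 and 0.064, with no overlap. The mixed wild-type mice gave -0.25 to -0.028 on MK29 and -0.29 to 0.091 on MK37, and the ΔHxΔP mice -0.12 to 0.15, overlapping both mixed wild-type groups. Class I genes made up 13.9% to 15.3% of all OR counts in wild-type 129 mice and 13.1% to 14.5% in ΔOlfr7Δ mice. The share was 10.3% to 11.8% and 10.1% to 12.7% in the mixed wild-type groups on MK29 and MK37 and 11.6% to 14.0% in ΔHxΔP mice. The deleted Olfr7 cluster genes drop out of the denominator in ΔOlfr7Δ mice. In ΔHxΔP mice the H and P cluster genes stay in it, most of them with lower counts. Without the Olfr7, H and P clusters the mean shares were 16.3%, 14.7%, 12.5%, 12.9% and 13.7%.

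**Figure D4:**
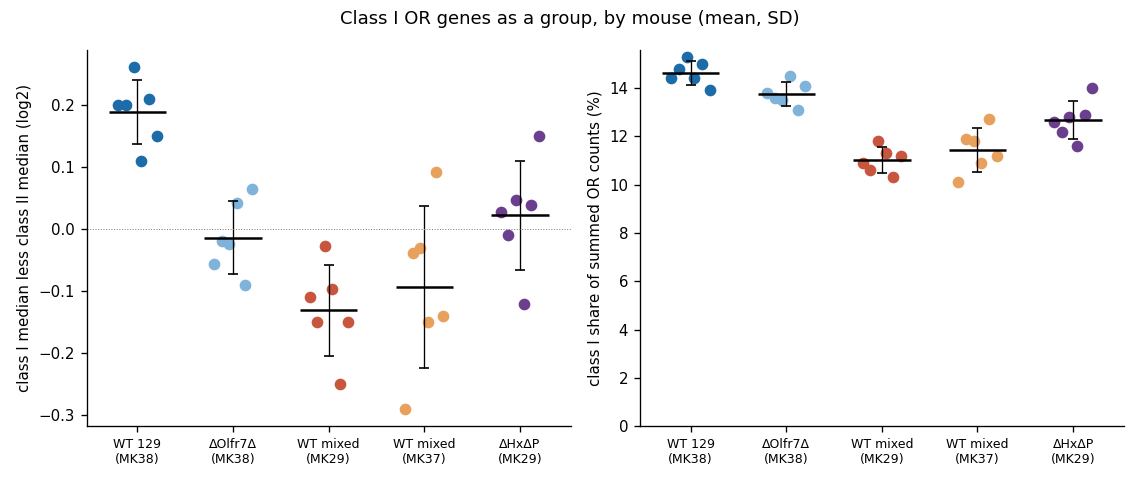
Left, class I median less class II median (log2) in each mouse; right, class I share (%) of raw counts summed over OR genes. Points are mice, bars group means and whiskers SD; wild-type 129 mice lie at 0.11 to 0.26 on the left and ΔOlfr7Δ mice at -0.090 to 0.064.

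The comparison of ΔOlfr7Δ with wild-type 129 mice asks what happens to other OR genes when the Olfr7 cluster is missing. Of 85 class I genes tested, 0 were higher and 10 (11.8%) lower by limma, with 23.4% of all 552 OR genes higher and 12.1% lower. An unadjusted limma p under 0.05, in either direction, was reached by 16 of the 85 and by 245 of all 552. Among class II genes outside the Olfr7, H and P clusters, 30.2% were higher and 4.74% lower. The class I median was -0.056 (log2) and that of these class II genes 0.12. The direction of the class I median depended on the scaling: the reference genes were themselves 0.18 higher (log2) in ΔOlfr7Δ mice on the positive control scale, and on that scale the class I median was 0.12, with 14 members higher and 3 lower. Scaled on the OR genes by their median ratio, 0 were higher and 30 lower. Shares over all OR genes are given for the first scaling only. The position of class I below class II, by 0.18 on the log2 scale, was the same under each of these scalings by construction.

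The largest fall among members was in Olfr629 (MOR26-2). Wild-type 129 mice gave 495, 611, 502, 503, 472 and 494 and ΔOlfr7Δ mice 413, 332, 290, 462, 357 and 295, so that the highest mutant lay just under the lowest wild-type mouse (log2 difference -0.53 ± 0.10, limma adjusted p = 0.000135). Olfr560 fell in the same measure, from 209 ± 24.3 to 146 ± 16.6 (1.43-fold, ranges apart, limma adjusted p = 0.000457). Olfr645 (MOR13-5), Olfr649 (MOR31-7) and Olfr692 (MOR36-1) were 1.34-, 1.21- and 1.22-fold lower with overlapping ranges. The other called members, Olfr644, Olfr652, Olfr64, Olfr676 and Olfr648, were lower by 1.12- to 1.17-fold. On the positive control scale Olfr629, Olfr560 and Olfr645 were still called lower, and the other 7 lost the call. There Olfr649 differed by -0.097 and Olfr692 by -0.10, and the remaining 5 lay between -0.046 (Olfr644) and 0.017 (Olfr648). Olfr676 and Olfr648 also lost the call with sex as a covariate, and Olfr644, Olfr652, Olfr64, Olfr676 and Olfr648 when certain single mice were left out. The methods' test against a fold change of 1.3 (unadjusted p under 0.01) called 0 of the 85 members. The paper reports few calls outside the deleted cluster with this test, so the absence of calls is not particular to class I. The count of members lower was 6 without wild-type 129 mouse 2, 6 without mouse 3 and 17 without ΔOlfr7Δ mouse 4.

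The comparison of ΔHxΔP with the 12 mixed wild-type mice asks how far the loss of the H and P elements reaches, and the class I cluster lies on the same chromosome as the P cluster. Of 84 class I genes, 6 (7.14%) were higher and 3 (3.57%) lower by limma, while 10.2% of all 557 OR genes were higher and 23.9% lower. The class I median was 0.044 (log2), against -0.070 for class II genes outside the Olfr7, H and P clusters and -0.65 for the P cluster. With cartridge as a covariate 15 members were higher and 3 lower. Against the MK29 mice alone 10 were higher and 2 lower, and against the MK37 mice alone 8 and 8, with a class I median of -0.045. Scaling on the OR genes gave 26 higher and 3 lower with the median ratio and 23 and 3 with the trimmed mean. Shares over all OR genes under these alternatives are not given here, so their counts describe class I members alone.

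Olfr644 (MOR13-1) and its neighbour Olfr643 (MOR13-2) rose most. For Olfr644 the ΔHxΔP mice gave 3029, 2784, 2720, 2996, 3159 and 3339, and the 12 wild-type mice ran from 1749 to 2635, apart from the mutants (1.36-fold, log2 difference 0.44 ± 0.077, limma adjusted p = 0.000163). Olfr643 was 1.41-fold higher, at 1586 ± 107 against 1139 ± 190 (limma adjusted p = 0.000835), with 1 wild-type mouse at 1485 inside the mutant range of 1477 to 1749. In wild-type 129 mice these genes stood at 3889 ± 434 and 2091 ± 205. Olfr559, Olfr577, Olfr628 and Olfr632 were 1.27-, 1.20-, 1.26- and 1.20-fold higher in the double mutants with overlapping ranges. Olfr577, Olfr628 and Olfr632 lost their calls with sex as a covariate and without ΔHxΔP mouse 6. Olfr577 also lost its call with cartridge as a covariate and against the MK29 mice alone (log2 difference 0.23 in both). Olfr628 lost its call against the MK37 mice alone (0.26). Olfr632 lost its call against the MK37 mice alone (0.096), on the positive control scale (0.30) and when any of 11 single mice was left out.

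Lower in ΔHxΔP mice were Olfr692 (786 ± 97.7 against 1025 ± 120, limma adjusted p = 0.00204), Olfr550 (383 ± 61.0 against 486 ± 50.7, limma adjusted p = 0.00615) and Olfr543 (218 ± 52.9 against 286 ± 29.9, limma adjusted p = 0.00737). Olfr692 is the last gene of the class I cluster and Olfr543 the first. Their ranges overlapped those of the wild-type mice, and Olfr543 lost its call against the MK29 mice alone (log2 difference -0.36). Without ΔHxΔP mouse 6, 3 members were higher and 8 lower, and the class I median was -0.011. Without mouse 5, 5 members were lower. The methods' test against a fold change of 1.5 (unadjusted p under 0.01) called 0 members in either direction. The paper reports few calls outside the H and P clusters with this test, so this too is not particular to class I. The comparisons with mixed wild-type mice share those 12 control mice, so the values of the 9 called members are given only side by side. Wild-type 129 mice differed from mixed wild-type mice by log2 differences of 0.81 in Olfr644, 0.89 in Olfr643, 0.56 in Olfr559, 0.40 in Olfr577, 0.94 in Olfr628 and 0.33 in Olfr632. For the members lower in ΔHxΔP mice the values were 0.64 in Olfr692, -0.76 in Olfr550 and 2.23 in Olfr543.

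Distance from the P cluster did not order these differences. The class I cluster spans 2.89 Mb in the OR table, its last gene lies 1303 kb before the P cluster and its first 4.19 Mb before it, while Olfr504 lies 1.42 Mb beyond. Over 84 placed genes Spearman rho between distance and the ΔHxΔP log2 difference was -0.03, and -0.04 over the 83 without Olfr504 (descriptions across genes that share mice). With the cluster cut by gene order into 4 blocks, from the far to the near end, the median ΔHxΔP differences were 0.041, 0.048, 0.075 and -0.002. Those of ΔOlfr7Δ were -0.057, -0.039, -0.078 and -0.051. The far block, Olfr543 to Olfr575, had the lowest median wild-type level, 547 scaled counts against 1143, 956 and 977 in the others.

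**Figure D5:**
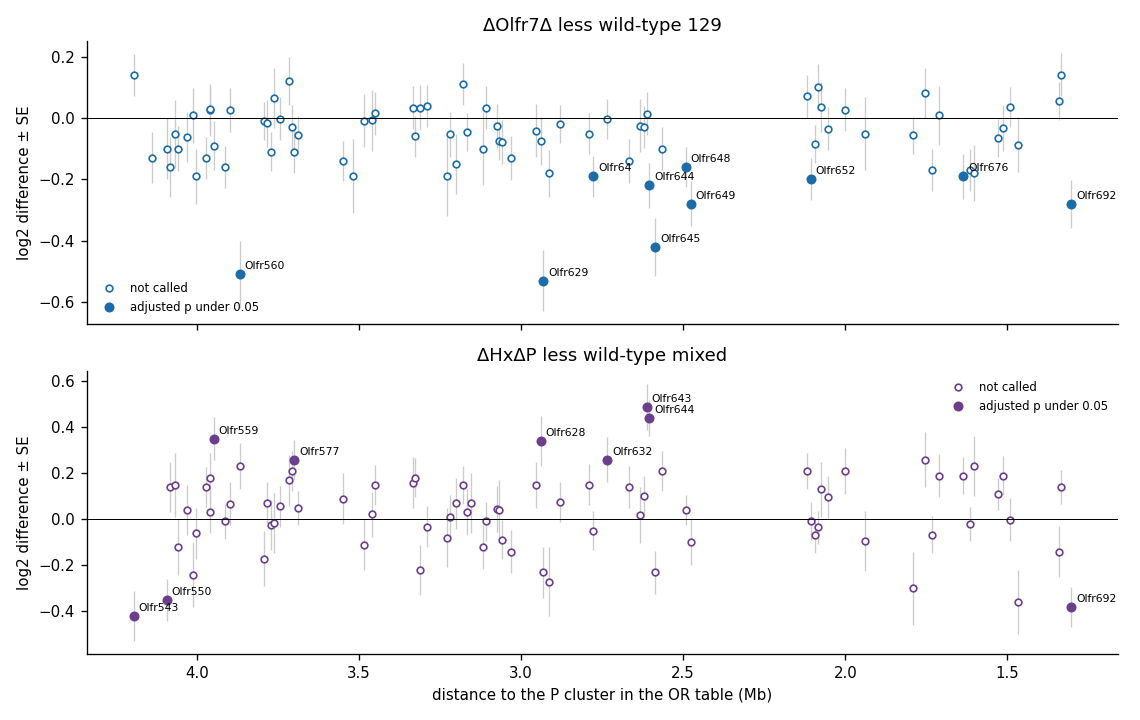
Log2 difference ± SE of each class I gene of the cluster (Olfr504 left out) against its distance to the P cluster (Mb), for ΔOlfr7Δ (top) and ΔHxΔP (bottom). Filled points passed the test: 10 lower in ΔOlfr7Δ, 6 higher and 3 lower in ΔHxΔP, with no order by distance (rho of 0.03 and -0.04).

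The mixed wild-type groups show how far mice without a deletion differed when their companion colony and cartridge differed. Of 84 class I genes, 3 (3.57%) were higher on MK29 and 29 (34.5%) lower, beside 10.8% higher and 29.3% lower over all 557 OR genes. The class I median was -0.13 (log2) and that of all OR genes -0.096. Scaled by the median ratio of OR genes it was -0.023, with 11 members higher and 12 lower. The trimmed mean gave 11 higher and 17 lower, and the positive controls alone 1 higher and 35 lower. Shares over all OR genes under these other scalings are not given here. Colony and cartridge cannot be told apart here.

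Olfr665, first in the pooled wild-type order, had the largest log2 difference among class I genes in this comparison: 3366, 2724, 3158, 3393, 3066 and 3625 on MK29 against 4992, 5561, 5601, 4717, 5667 and 5220 on MK37, with no overlap (1.65-fold lower on MK29, limma adjusted p = 1.21e-06). Olfr690 was 1.40-fold lower (limma adjusted p = 3.41e-05), Olfr571 1.34-fold, and Olfr610 and Olfr611 both 1.29-fold, all with separate ranges. Olfr504, away from the cluster, was lower by a log2 difference of -0.37 (limma adjusted p = 0.00134). In the other direction were Olfr33 (993 ± 81.7 against 773 ± 80.7), Olfr599 (2285 ± 210 against 1843 ± 222) and Olfr667 (790 ± 76.3 against 646 ± 103). Olfr667 missed the threshold when any of 4 single mice was left out. Without MK29 mouse 5, or without MK37 mouse 5, 5 members were higher on MK29.

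Class I genes varied together from mouse to mouse. After group means were removed, the correlation between the log2 levels of 2 class I genes over 30 mice had a median of 0.53 across 3403 pairs, with 98.8% of pairs above 0. It was 0.16 for pairs of class II genes outside the Olfr7, H and P clusters and 0.20 for a class I gene with a class II gene. All these pairs share lanes, scaling and depth, so these values are descriptions without a test. Scaled by the median ratio of OR genes, the medians were 0.32, 0.02 and -0.05. Most of the genes that set this scaling are class II, so it removes mainly what class II genes share. A class II median near 0 therefore follows largely from the scaling, and these medians do not compare the classes on equal terms. The first component of the class I deviations held 53.4% of their variance with the same sign in 83 of 83 genes, and 31.1% with the same sign in 82 under that scaling.

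Correlations of near and distant pairs differed by little under the first scaling and by more under the median ratio. The 65 pairs within 25 kb had a median of 0.55 and the 370 pairs 2000 to 3000 kb apart 0.48, and pairs of one MOR number (108) had 0.57 against 0.53 for the rest. Scaled by the median ratio, these medians were 0.39 within 25 kb and 0.27 at 2000 to 3000 kb, and 0.38 for one MOR number against 0.31 for the rest. Olfr504 and the other members had a median of 0.54 over 82 pairs, and 0.25 when scaled by the median ratio. The highest pairs were Olfr606 with Olfr610 (r = 0.90, 54.7 kb apart), Olfr599 with Olfr653 (0.90, 1242 kb) and Olfr601 with Olfr610 (0.89, 148 kb), none of which share a MOR number. The within-group SD of log2 levels had a median of 0.16 in class I and 0.15 in class II. It was largest in Olfr664 (0.27), Olfr555 (0.26) and Olfr611 (0.24), and smallest in Olfr690, Olfr683 and Olfr547 (0.11 each). Mice at the top for class I as a whole were ΔHxΔP mouse 6, with a class I median 0.26 above the wild-type mean (log2), and wild-type 129 mouse 2, at 0.25.

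Promoter windows of RefSeq (GRCm38.p6, 250 bases before to 50 after the annotated start) matched 73 of the 86 members. OR promoters are known for homeodomain sites and Olf1/EBF sites, so the letters TAATTA, the looser TAATNA that takes it in, and the letters CCCNNGGG were searched on both strands. TAATTA occurred in 10 class I windows (13.7%), in 18.5% of 405 class II windows and in 5.31% of all 27025 windows. TAATNA occurred in 63.0% of class I, 63.5% of class II and 26.8% of all windows. The windows of OR genes were poorer in GC (median 38.0% in class I and 35.7% in class II against 52.7% over all). CCCNNGGG occurred in 1 class I window (1.37%), in 3.21% of class II and in 13.4% of all windows. In 52 of the 73 class I windows the annotated start was itself an ATG, against 6.75% of all windows, so many of these windows precede the coding start rather than a mapped transcription start. Members with TAATTA had a median wild-type level of 1150 scaled counts and those without it 909, which describes 10 and 63 genes. For TAATNA these medians were 946 and 847 over 46 and 27 genes.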

How the data were processed

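The authors counted 6 positive controls, 8 negative controls, 5 reference genes and 564 OR genes with 1 NanoString code set in 30 mice. They deposited the raw counts without normalization, with the probe sequences. As in the study's methods, each lane was scaled first by its positive controls and then by its reference genes (geometric means), here over all 30 lanes. The tests took in genes whose median in wild-type mice reached 100 counts after subtraction of background (mean plus 2 SD of the negative controls). Levels were fitted as log2(scaled count + 1) with limma 3.58.1 in R 4.3.3 (mean-variance trend, Benjamini-Hochberg over all OR genes tested, threshold 0.05). The step was tested on simulated data. MOR numbers, clusters and order came from the study's OR naming table (no build named in the sources used). RefSeq coordinates are GRCm38.p6, and all members matched by symbol. The members and lists were chosen with earlier results of these data known. Named genes were the 5 highest and 5 lowest by wild-type level, the 5 smallest p per direction among called genes of each comparison, the ends of the cluster, members chosen by role or place, the largest and smallest within-group SDs and the 3 most correlated pairs. Each lane held 1 mouse, so the errors are between mice. Whether the number of counts or the spread between mice limits precision more was not tested, since no mouse was counted in more than 1 lane. The reference genes mark mature olfactory sensory neurons. Markers of other cells were not analysed here.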

Additional observations from a re-analysis of the deposited data

Results flagged for a closer look

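Values of the named class I genes and of 3 class-wide measures were looked at in 227 groups of 6 mice for a highest or lowest mouse that lay far from the others (Dixon's ratio past its critical value), and 13 were found, where chance gives about 1 in 20. ΔOlfr7Δ mouse 4 had 268 scaled counts of Olfr664 (the other 5 mice 178 to 195), 170 of Olfr589 (123 to 132), 1503 of Olfr571 (822 to 1061) and 1780 of Olfr78 (1439 to 1538). Wild-type 129 mouse 2 had 611 of Olfr629 (472 to 503) and 1084 of Olfr33 (888 to 954), and wild-type 129 mouse 6 had 238 of Olfr670 (300 to 319). On MK37, wild-type mouse 5 had 1090 of Olfr649 (733 to 852) and 1174 of Olfr571 (859 to 966), and mouse 1 had 179 of Olfr568 (219 to 242). On MK29, wild-type mouse 3 had 2075 of Olfr616 (1567 to 1677), wild-type mouse 1 had 309 of Olfr558 (398 to 421), and ΔHxΔP mouse 6 had 962 of Olfr691 (760 to 825).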

How the results depend on the processing

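No paired analysis was possible because the labels give the groups no shared replicate numbers. The deposited columns hold raw counts, but a unit check could not read them as such. The count models listed as alternatives were therefore not run. For ΔOlfr7Δ, 0 higher and 10 lower became 14 and 3 with positive controls alone (median 0.12), 0 and 21 with the trimmed mean and 0 and 30 with the median ratio. For ΔHxΔP, 6 higher and 3 lower became 23 higher with the trimmed mean, 26 with the median ratio, 3 with sex as a covariate, 10 against MK29 mice, 15 with cartridge as a covariate, and 8 lower against MK37 mice. For MK29 against MK37, 3 higher and 29 lower became 1 higher with positive controls alone, 11 and 17 with the trimmed mean, and 11 and 12 with the median ratio (median -0.023). The methods' fold change test gave 0 calls in these comparisons and 6 higher and 5 lower for wild-type 129 against mixed mice. The median correlation of class I pairs was 0.29 with the trimmed mean and 0.32 with the median ratio. Leaving out single mice gave 6 to 17 lower in ΔOlfr7Δ, 3 to 8 higher and 3 to 8 lower in ΔHxΔP, 2 to 5 higher and 21 to 32 lower on MK29, and 43 to 48 higher and 11 to 19 lower in wild-type 129. Shares over all OR genes are not given for these settings, so the counts describe class I members alone. Why the counts moved was not tested.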
